A study of Homo sapiens with 36 samples.

Results

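Replication-dependent histone genes encode the bulk of the proteins that package newly made DNA: the linker histone H1 and the core histones H2A, H2B, H3 and H4. The genes were taken from each deposited table by symbol, in the older style (HIST1H2BK) or the current one (H2BC12), and symbols that mark pseudogenes were left out. This gave 66 of 60642 genes in the K562 LMO2 degron table (6 H1, 16 H2A, 17 H2B, 13 H3 and 14 H4 genes), 75 of 57820 in the HEL table and 43 of 13707 in the K562 LDB1 table. Over the 3 tables these are 75 distinct genes, of which 39 stand in all 3. RefSeq lists 5 of the 75 HEL genes, and 2 of the 43, as pseudogenes, all of the H2B type.

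These genes lie in clusters and are transcribed together in S phase, when DNA is copied, with the help of NPAT, a coactivator found at histone loci. Their messenger RNA usually ends in a short stem-loop bound by SLBP in place of a poly(A) tail, and it is degraded when DNA synthesis stops. Some histone genes can also give polyadenylated RNA, for example in cells that leave the cycle. All libraries of the series are labelled as polyA RNA, so the values below are of histone RNA recovered in such a preparation, and RNA that ends at the stem-loop may be under-represented.

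The series asks which transcripts depend on LMO2, LDB1 and TAL1 in leukemia cells. LMO2 is an adaptor protein, LDB1 bridges LMO2 complexes, and TAL1 is a DNA-binding helix-loop-helix factor of the complex. The first set holds 24 libraries of K562, a chronic myeloid leukemia line that expresses erythroid genes: parental cells, an LMO2 control line, for which the labels name no construct, and degron cells of LMO2 that carry the label rep 1 or rep 2. These are treated as degron line 1 and degron line 2. Each was sampled without dTAGv1 on day 0 and with dTAGv1 on days 1 and 4 (750 uM as labelled), in 2 libraries labelled bio rep 1 and bio rep 2; dTAGv1 marks a degron-tagged protein for breakdown, and all 4 lines received it. The second set holds 9 libraries of HEL, an erythroleukemia line, electroporated with non-targeting siRNA or with 1 of 2 TAL1 siRNA pools (3 each), and 3 more K562 libraries carry a control shRNA or 1 of 2 LDB1 shRNAs (1 each). Nothing in the labels says that libraries of a group came from separate cultures, so p-values measure the spread between these libraries.

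Library depth was 17196756 to 26321637 reads in the degron set, as recovered from the FPKM, and 15869619 to 27029836 counts in HEL; the depth behind the LDB1 table is unknown. TAL1 stood at 438 to 490.3 CPM (counts scaled to the library total) in the non-targeting HEL libraries and at 165 to 194.6 with either pool. LDB1 stood at 468 TPM with control shRNA and at 62.4 and 69.6 TPM with LDB1 shRNA 1 and 2. LMO2 RNA stood at 31.2 to 46.6 FPKM in parental cells, 212 to 443 in the LMO2 control line and 128 to 271 in the degron lines, but RNA does not test loss of the degron-tagged protein. Of 16 erythroid and megakaryocytic line markers, 13 were at 1 FPKM or more in all 24 degron-set libraries, whereas 7 of 12 lymphoid and 7 of 10 stromal markers stayed below 1 FPKM in all of them.

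The 3' stem-loop is shown because it is the feature that sets these messages apart. It was searched for in GENCODE 29 transcripts as a 16-base stem-loop (GG, NN, CT, any 4 bases, AG, NN, CC) with fully complementary arms of 6 bases, and 31 of 74 matched genes held it in at least 1 transcript. The sequence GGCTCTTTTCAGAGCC was shared by 17 genes of the H2A, H2B and H3 types, and 5 H4 genes shared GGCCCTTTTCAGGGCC. Transcripts named HIST2H2AA3 (H2AC18) and HIST2H2AA4 (H2AC19) both held the first sequence but were counted together as H2AC19. A transcript without a match only lacks these letters, and a model that stops before the end of its message cannot hold them. The counts above are thus a minimum. The models of H1-2 (642 bases) and H2BC12 (381 bases) had none. That of H2BC12 ended before base 405, the earliest start of a stem-loop among the H2B models (H2BC9), so it could not show one there. Below, capitals mark the stem-loop, with 5 bases on either side.
H4C9: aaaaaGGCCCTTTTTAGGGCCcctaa
H2BC4: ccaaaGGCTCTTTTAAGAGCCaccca
H2BC13: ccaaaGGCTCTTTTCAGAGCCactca
H2AC6: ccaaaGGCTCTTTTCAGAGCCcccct
H2BC21: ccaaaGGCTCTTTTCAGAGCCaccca
The H2BC13 transcript ended 40 bases after the stem-loop, whereas that of H2BC21 went on for 1729 bases and 2 of the 3 matched for H2AC6 for 1114 and 1128. H4C9 had 212 and H2BC4 116 bases after it.

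Promoters of 250 bases before to 50 bases after the start (RefSeq, GRCh38.p14) were found for 65 of the 75 genes. The octamer ATTTGCAT, bound by POU2F1, occurred on either strand in 26 of the 65 (40%), against 2.19% of all 27305 genes with a promoter. It was found in 14 of 18 H2B and 11 of 16 H2A promoters, in 1 of 12 H3 promoters and in none of the 6 H1 and 13 H4 promoters. Head-to-head H2A and H2B genes can share a window, so these matches are not all separate. CCAAT occurred in 55 of 65 genes (84.6%, against 39.7% of all genes), with 3 of 13 H4 promoters among them, and TATAAA in 44 (67.7%, against 14%). Of motifs bound by the complex under study, the GATA sites AGATAA and TGATAA were present in 5 (7.69%) and 4 (6.15%) of the 65, against 12.4% and 9.22% of all genes, and the E-box CAGATG in 9 (13.8%, against 17.5%). A match is a description of letters and not of binding. The 3 promoters below belong to an H1, an H2B and an H4 gene that were called in the degron set, described further on. Capitals mark ATTTGCAT, CCAAT and TATAAA on either strand, some of which overlap.
H1-2 (chr6:26056421-26056720, minus strand): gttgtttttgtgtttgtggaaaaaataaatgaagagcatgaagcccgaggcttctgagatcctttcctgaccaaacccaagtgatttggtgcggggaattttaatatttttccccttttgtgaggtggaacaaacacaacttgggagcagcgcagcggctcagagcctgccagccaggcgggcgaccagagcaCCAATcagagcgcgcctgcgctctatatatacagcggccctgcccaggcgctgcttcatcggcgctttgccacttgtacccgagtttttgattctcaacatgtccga
H2BC12 (chr6:27146809-27147108, minus strand): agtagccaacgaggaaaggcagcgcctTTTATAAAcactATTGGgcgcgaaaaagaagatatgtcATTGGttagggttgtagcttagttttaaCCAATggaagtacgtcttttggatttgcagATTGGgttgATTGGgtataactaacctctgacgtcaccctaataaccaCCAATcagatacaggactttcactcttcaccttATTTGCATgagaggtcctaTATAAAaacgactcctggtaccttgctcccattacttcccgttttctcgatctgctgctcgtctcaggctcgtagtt
H4C9 (chr6:27139032-27139331, plus strand): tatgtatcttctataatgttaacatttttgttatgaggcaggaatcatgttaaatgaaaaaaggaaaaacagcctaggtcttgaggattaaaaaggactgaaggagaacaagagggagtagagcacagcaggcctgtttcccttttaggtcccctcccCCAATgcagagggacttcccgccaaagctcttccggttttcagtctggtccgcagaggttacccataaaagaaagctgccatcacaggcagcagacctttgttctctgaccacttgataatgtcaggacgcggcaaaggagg

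In the degron set, levels in FPKM, which are scaled to each gene's length and to the size of the library, differed widely between histone genes. H2BC12, which encodes an H2B, was the highest, from 419.9 to 2785 FPKM over the 24 libraries, followed by H1-2, which encodes a linker histone, from 239 to 1675. The next 4 by mean FPKM were H2BC11 (36.5 to 342), H2AC6 (73.0 to 147), H4C9 (31.4 to 191) and H3C10 (46.98 to 159.6). These 6 genes were the only ones with a mean of 100 FPKM or more, and 17 of 66 reached a mean of 10. A total of 2 genes, H2AC15 and H3C4, were listed at 0 in all 24 libraries. H2BC12 and H1-2 took 37.0% to 57.0% of all recovered histone reads in a library. The low-value filter of the test, at least 1 FPKM in at least 2 libraries, was passed by 47 of the 66, and the other 19 never exceeded 1.60 FPKM. Of the 47, H2AC4 and H4C1 passed only through the LMO2 control line, and 30 were at 1 FPKM or more in every library.

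The lines differed before any dTAGv1. On day 0, histone reads summed to 2261 and 1525 RPM (recovered reads scaled to the library total) in bio rep 1 and 2 of parental cells, 2994 and 3482 in the LMO2 control line, 2332 and 2487 in degron line 1 and 2486 and 2475 in line 2. The LMO2 control line was the highest and parental cells the lowest, and the degron lines lay between them. Set against parental cells, 46 of 47 histone genes were higher in the LMO2 control line on day 0 (median log2 difference 0.65). Over all 15348 genes 8832 were higher (median 0.04). The 46 include H2AC4 and H4C1, which passed the filter only through that line, so their direction was favoured in advance. A total of 3 passed the test as higher (6.38%, with 1.3% of 15348 genes called higher and 0.521% lower). With the bio rep number as a block 4 passed (8.51%, with 3.34% of all genes called higher and 1.3% lower). The 3 without the block were H3C13, an H3 gene (1.96 ± 0.37, SE; limma adjusted p = 0.0114), H2AC19, an H2A gene (1.31 ± 0.27; adjusted p = 0.0176), and H1-4, a linker histone gene (1.56 ± 0.35; adjusted p = 0.0301). The block added H4C9, an H4 gene (0.61 ± 0.26; adjusted p = 0.398, and 0.0464 with the block). H3C13 was at 6.08 and 12.96 FPKM in the LMO2 control line, against 1.59 and 1.54 in parental libraries. With both control lines pooled, no histone gene differed between degron and control lines on day 0 (0 of 47, also 0 at unadjusted p under 0.05), while 10.6% of all genes were called higher and 6.14% lower (0 of 47 with the block, 17.9% and 12.9%). The pooled control averages 2 lines that differed in histone RNA, so this does not show that the degron lines match either one.

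After 4 days of dTAGv1 histone RNA was lower in both degron lines, by more than in the control lines. Against day 0, 42 of 47 genes were below 0 in degron line 1 (median -0.50) and 46 in line 2 (median -0.97), against 26 in parental cells (median -0.02) and 35 in the LMO2 control line (median -0.15, with 43.8% of all genes below 0). The degron-specific change, the mean change from day 0 over both degron lines minus that over parental and LMO2 control cells on the log2(FPKM + 1) scale, was below 0 for 44 of the 47 genes tested, with a median of -0.63 (0.06 over all genes). The median was -0.95 with a pseudocount of 0.1 and -1.10 by edgeR on recovered reads. A total of 8 of 47 passed the test as lower and 0 as higher, against 8.18% of all 15348 genes called lower and 11.6% called higher. The 8 were 1 linker gene, 1 H2A, 5 H2B and 1 H4 gene; none of the 7 H3 genes tested passed. With the bio rep number as a block, 14 passed as lower and 0 as higher (29.8%, with 15.6% of all genes called lower and 20.1% higher). An edgeR test on recovered reads, chosen after seeing the data, called 8 of 49 lower (7.73% of all genes).

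**Figure D1:**
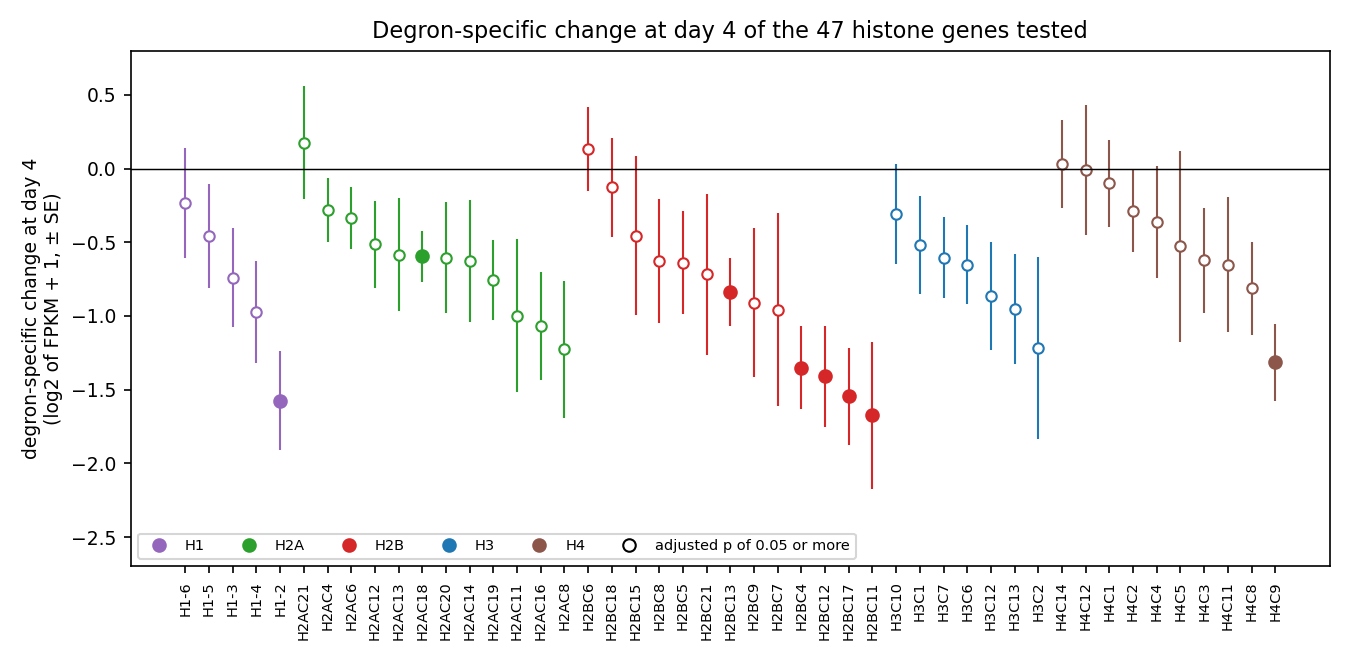
Degron-specific change at day 4 (y axis, log2 of FPKM + 1, bars are SE) of each of the 47 histone genes tested (x axis), coloured by histone type. Filled points passed the limma test (8 genes, all below 0) and open points did not; 44 of the 47 points lie below 0.

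Among linker histones, H1-2 fell by 1.58 ± 0.34 (adjusted p = 0.00448). In degron line 1 it stood at 1029 and 803 FPKM on day 0 and at 331 and 533 on day 4 (bio rep 1 and 2), and in degron line 2 at 1212 and 794 and then at 239 and 319. In parental cells it stood at 837 and 451 on day 0 and 938 and 575 on day 4, and in the LMO2 control line at 1307 and 1265 and then 1358 and 1148. All 4 degron libraries of day 4 were below their own day 0 libraries, whereas the bio reps of parental cells differed from each other more than their days did. The other 4 linker genes tested were also below 0, and H1-4 (-0.97 ± 0.35; adjusted p = 0.0610) and H1-3 (-0.74 ± 0.34; adjusted p = 0.139) passed with the block (adjusted p = 0.0235 and 0.0477).

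H2B genes held most of the calls, 5 of 13 tested. H2BC12 fell by 1.41 ± 0.34 (adjusted p = 0.00952). Its FPKM went from 1365 and 1821 on day 0 to 586 and 991 on day 4 in degron line 1 and from 1259.5 and 1475 to 419.9 and 635 in line 2. Over the same days parental cells went from 1138 and 1348 to 1325 and 1416, and the LMO2 control line from 1692 and 2052 to 1832 and 2591. The 4 degron libraries of day 4 were the lowest of these 16 libraries.

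H2BC17 fell by 1.54 ± 0.33 (adjusted p = 0.00450), from 41.3 and 36.7 FPKM to 16.95 and 17.2 in degron line 1 and from 37.6 and 33.9 to 7.43 and 10.6 in line 2. H2BC4 fell by 1.35 ± 0.28 (adjusted p = 0.00361), from 40.2 and 44.3 to 15.2 and 21.3 in line 1 and from 59.2 and 61.5 to 12.5 and 17.8 in line 2. For both genes the 4 degron libraries of day 4 were below all 20 other libraries of the set, including the parental bio rep 2 libraries, where H2BC17 was 20.02 to 28.3 and H2BC4 22.3 to 30.8. H2BC11 had the largest fitted change of the 47, -1.67 ± 0.50 (adjusted p = 0.0282), and also a wide spread: degron line 1 stood at 114 and 172 on day 0 and at 38.5 and 100.1 on day 4. The bio reps of H2BC11 on day 4 in that line thus differed by over 2-fold. Its call was lost in 8 of 16 fits that left out 1 library, with changes of -2.01 to -1.34. H2BC13 fell by 0.84 ± 0.23 (adjusted p = 0.0188), from a low level: 8.69 and 8.95 to 7.39 and 4.76 in line 1 and 6.92 and 8.45 to 3.70 and 4.01 in line 2. Its day 4 values in line 1 overlapped day 0 of line 2.

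**Figure D2:**
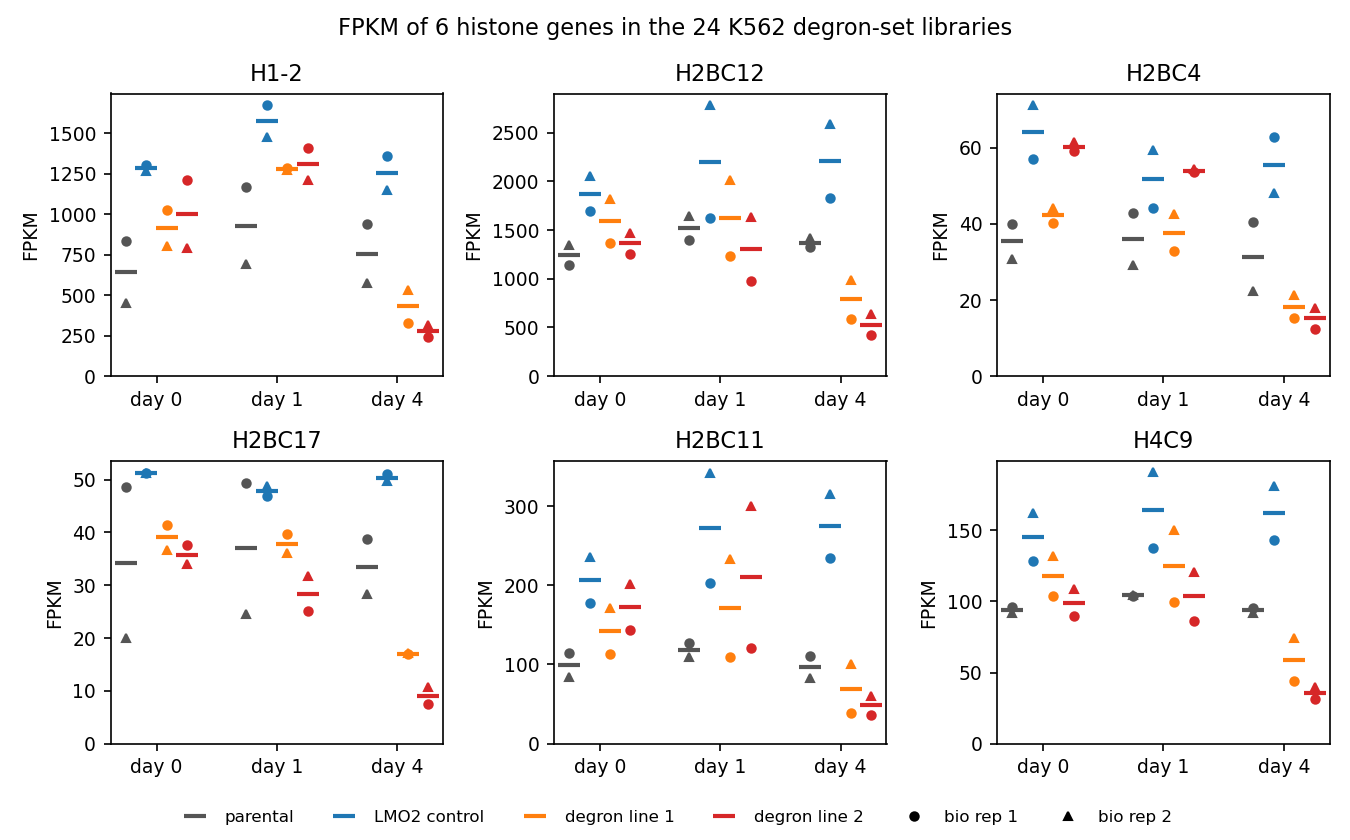
FPKM (y axis, from 0) of 6 histone genes in all 24 K562 degron-set libraries by day (x axis) and line (colour); circles are bio rep 1, triangles bio rep 2 and bars the mean of both. On day 4 both degron lines lie lowest in each panel's line means, while days 0 and 1 show no such drop.

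Of H4 genes, H4C9 passed (-1.32 ± 0.26; adjusted p = 0.00292). Its FPKM in degron line 1 was 104 and 132 on day 0 and 44.2 and 74.0 on day 4, and in line 2 it was 90.04 and 108 and then 31.4 and 39.9. Parental cells stayed at 92.1 to 105 in all 6 libraries and the LMO2 control line at 128 to 191, so the 4 degron day 4 libraries were below every other library of the set. The other 9 H4 genes tested ranged from -0.81 (H4C8) to 0.03 (H4C14), and H4C8 had SE 0.32 and adjusted p = 0.0857.

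H2AC18, an H2A gene, fell by 0.59 ± 0.17 (adjusted p = 0.0242) at a low level: 3.03 and 3.70 to 1.87 and 1.96 FPKM in line 1, and 2.66 and 3.02 to 1.78 and 1.27 in line 2. H2AC18 and H2AC19 are near-identical copies, so the split of reads between them is uncertain. The call of H2AC18 was lost in 8 of 16 fits that left out 1 library (-0.69 to -0.50). H2AC6, the highest H2A gene, stood at -0.34 ± 0.21 (adjusted p = 0.293). Its degron libraries of day 4 lay at 73.0 to 89.98 FPKM, overlapping parental bio rep 2 on day 0, at 86.6. Of the 12 H2A genes tested, 11 were below 0 with a median of -0.60, and H2AC16 (-1.07 ± 0.37; adjusted p = 0.0545), H2AC19 (-0.75 ± 0.27; adjusted p = 0.0619) and H2AC8 (-1.23 ± 0.46; adjusted p = 0.0776) passed with the block (adjusted p = 0.00435, 0.0343 and 0.0491). H2BC9 did so too (-0.91 ± 0.51; adjusted p = 0.230, and 0.0209 with the block).

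All 7 H3 genes tested were below 0 (median -0.65), but none passed with or without the block. At unadjusted limma p under 0.05 there were 4 of the 7, against 18 of the 47 histone genes and 5081 of all 15348 genes. H3C10, the highest, stood at -0.31 ± 0.34 (adjusted p = 0.577), with 94.8 and 98.9 FPKM on day 0 and 69.4 and 87.6 on day 4 in degron line 1, and 94.3 and 115 and then 57.4 and 75.4 in line 2. Its parental bio rep 2 libraries, at 46.98 to 55.2, were below all of these. At this replication a fall of the size of H3C10 could not be told from the spread.

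Summed over the genes, histone reads in degron line 1 went from 2332 and 2487 RPM on day 0 to 1135 and 1590 on day 4, and in line 2 from 2486 and 2475 to 848 and 1086. Parental cells went from 2261 and 1525 to 2360 and 1592, and the LMO2 control line from 2994 and 3482 to 3297 and 3220. Day 4 against day 0 within the degron lines gave 26 lower and 0 higher (55.3%, with 14.5% of all genes called lower and 24.9% higher), or 33 with the block (70.2%, with 20.9% and 32.3%). A total of 31 of the 47 genes had all 4 degron day 4 libraries below all 4 degron day 0 libraries (66.0%, against 14.1% of all genes), and 4 genes, H2BC4, H2BC17, H4C3 and H4C9, had them below all 20 other libraries (8.51%, against 4.83%). In bulk libraries, fewer cells that make a transcript and less of it per cell cannot be told apart.

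The fall came after day 1. On day 1 no histone gene passed (0 of 47, also 0 at unadjusted p under 0.05 and 0 with the block), against 0.0261% of all genes called higher and 0.0521% called lower (0.463% and 0.625% with the block). The median was 0.04 and 21 of 47 were below 0. H1-2 stood at 1288 and 1273 FPKM in degron line 1 and 1410.1 and 1210.0 in line 2 on day 1, above day 0 in all 4 libraries. It was also higher on day 1 in both bio reps of parental and LMO2 control cells, at 1169 and 691 and at 1675 and 1479.9. Between day 1 and day 4, 5 genes passed as lower and 0 as higher (10.6%, with 3.26% of all genes called lower and 3.85% higher): H2BC4 (-1.34 ± 0.28; adjusted p = 0.0105), H1-2 (-1.61 ± 0.34; adjusted p = 0.0105), H4C9 (-1.21 ± 0.26; adjusted p = 0.0131), H2BC17 (-1.33 ± 0.33; adjusted p = 0.0248) and H2BC13 (-0.87 ± 0.23; adjusted p = 0.0345). With the block 12 passed as lower (25.5%, with 8.17% of all genes called lower and 8.87% higher). These were 2 linker, 6 H2B, 3 H3 and 1 H4 gene. The day 1 and day 4 changes share their day 0 libraries.

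In the control lines, day 4 against day 0 gave no call among the 47 or among all genes (0.0% in either direction; 0 of the 47 at unadjusted p under 0.05). The median of the 47 was -0.03 and the range -0.42 to 0.47. Between the degron lines, the change at day 4 was larger in line 2 for 44 of 47 genes (median difference -0.44), but none of these differences passed (0 of 47, 0 at unadjusted p under 0.05; 0.00652% of all genes in each direction, and 0.00652% higher and 0.0195% lower with the block, which called 0 of 47). Set alone against the control lines, line 1 gave 1 lower gene (3.3% of all genes) and line 2 gave 8 (6.37%), or 5 (9.23%) and 19 (13.1%) with the block. H1-2 differed by -0.71 ± 0.48 between them.

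RNAs outside the histone list that lack a poly(A) tail moved between these libraries too. RN7SL1, the RNA of the signal recognition particle, was at 1053 to 2337 FPKM on days 0 and 1 in all lines. On day 4 it was at 306, 200.3, 255 and 164 in bio rep 1 of parental, LMO2 control, degron line 1 and degron line 2 cells, and at 1544, 1514, 652 and 401 in bio rep 2. It was thus low in all lines in bio rep 1 and in the degron lines alone in bio rep 2. In bio rep 1 of the 2 control lines, where RN7SL1 was low as well, histone reads were 2360 and 3297 RPM, against 2261 and 2994 on day 0. None of the 6 such RNAs that passed the filter was called (median -0.50; RN7SL1 -0.84 ± 0.80, adjusted p = 0.506; SNORD17 -0.91 ± 0.51, adjusted p = 0.239), SNORD17 passed as lower with the block (adjusted p = 0.0139), and RPPH1, RN7SK and TERC were below 1 FPKM throughout. The 19 listed RNAs summed to 169.6 to 664 FPKM in the degron day 4 libraries and 221 to 2356 in the other 20. Their part in the histone result was not tested.

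**Figure D3:**
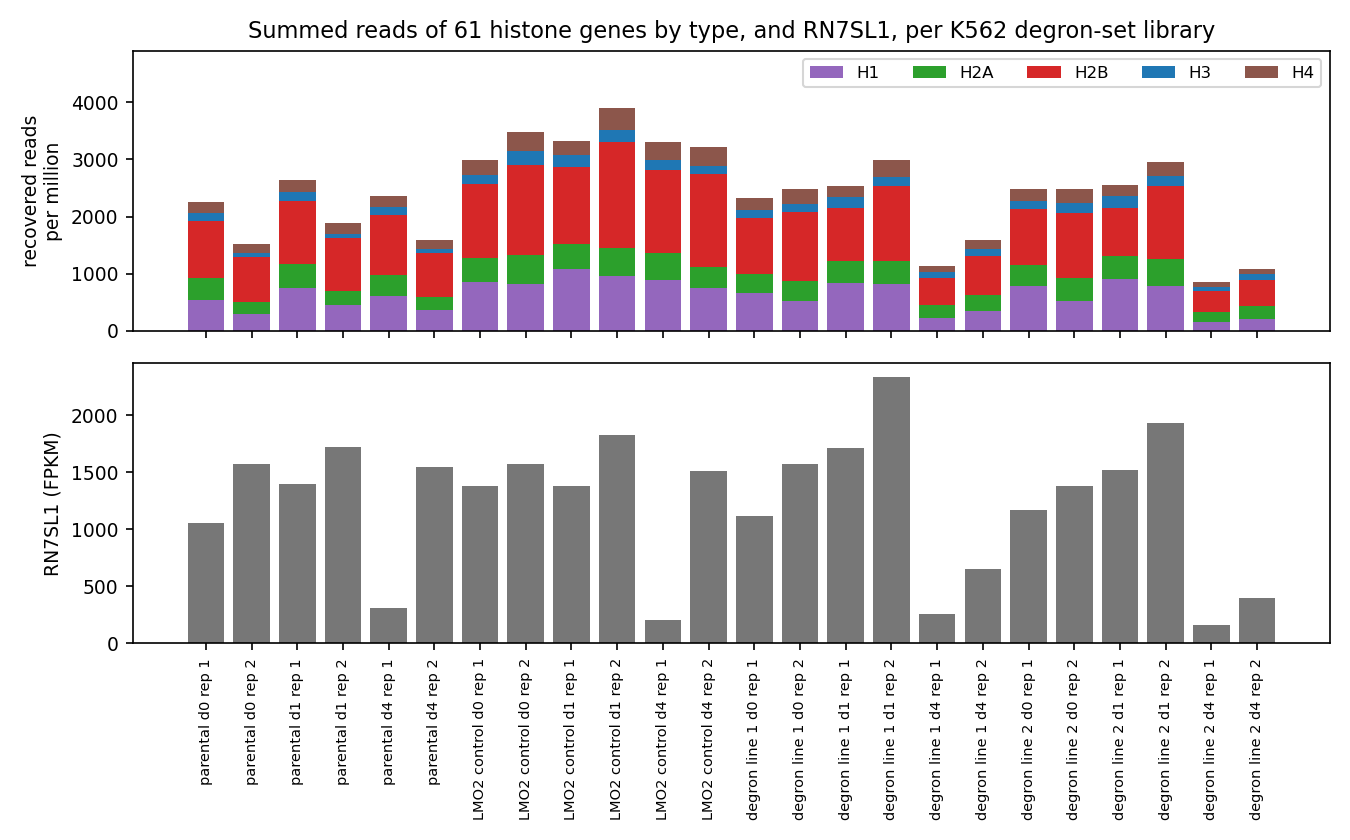
Top, RPM of 61 histone genes with a recovered gene length, stacked by histone type, in each of the 24 K562 degron-set libraries (x axis: line, day d0, d1 or d4, bio rep). Bottom, RN7SL1 FPKM in the same libraries. The 2 lowest histone sums are those of degron line 2 on day 4 (848 and 1086), and RN7SL1 is low in all 4 bio rep 1 libraries of day 4.

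Within bio rep 1 the degron-specific change at day 4 was below 0 for 46 of 47 genes (median -0.81), and within bio rep 2 for 41 (median -0.59), against 43.2% and 46.8% of all genes. H1-2 was at -2.09 in bio rep 1 and -1.06 in bio rep 2, H2BC12 at -1.57 and -1.25, H2BC17 at -1.55 and -1.54 and H4C9 at -1.42 and -1.21. Without the 4 day 4 libraries of bio rep 1, an alternative chosen after seeing the data, H4C9 alone was called (-1.12; adjusted p = 0.0430; 4.14% of all genes called lower). In the same libraries with the block 10 genes were called (21.3%, with 13.5% of all genes). The bio reps also differed by themselves: in a fit with the 12 groups, 8 histone genes were higher and 9 lower in bio rep 2 than in bio rep 1 (of 47, with 23.8% and 25.6% of all genes). H2BC12 was higher in bio rep 2 by 0.46 ± 0.07 (adjusted p = 9.1e-05) and H4C5 lower by 0.80 ± 0.16 (adjusted p = 0.00107).

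Genes of DNA replication and the cell cycle also fell by day 4, although some stood lower in the degron lines before dTAGv1. Of 25 S phase genes, 18 fell and 0 rose (median -0.999), with MCM7 (-1.44 ± 0.16) and MCM2 (-1.12 ± 0.15), subunits of the replicative helicase, TK1 (-1.22 ± 0.14), which makes thymidine monophosphate, and TYMS (-1.07 ± 0.15), thymidylate synthase, at adjusted p = 5.08e-05 to 0.00019. Their sum was 516 to 922 FPKM in the degron day 4 libraries and 954 to 1856 in the other 20, with no overlap. Of 16 G2 and M phase genes 13 fell (median -1.02), among them AURKA, a mitotic kinase (-1.01 ± 0.11; adjusted p = 3.53e-05), and CCNB1, a mitotic cyclin (-1.14 ± 0.17; adjusted p = 0.000361). On day 1 none of either list passed, with medians of -0.25 (S phase) and -0.02 (G2 and M phase), against 0.04 for the histone genes. Before dTAGv1, 6 of 25 S phase genes were lower in the degron than in the control lines (11 with the block, median -0.25). So were 2 of 16 G2 and M phase genes (4 with the block, median -0.13). Of all genes 6.14% were lower then (12.9% with the block), and 0 of 47 histone genes were. CDKN1A, an inhibitor of cyclin-dependent kinases, was the one call among 8 CDK inhibitors and G1 cyclins (1.37 ± 0.35; adjusted p = 0.0123). The part of cell cycle position in the histone values was not tested.

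The machinery of histone messages moved less uniformly. Of 25 genes for histone transcription, 3' processing and decay, 5 fell and 1 rose (median -0.03): E2F1, a factor of S phase entry (-0.88 ± 0.15; adjusted p = 0.000924), CDK2 (-0.70 ± 0.14; adjusted p = 0.00274) and CCNE1 (-1.04 ± 0.26; adjusted p = 0.0107), the kinase and cyclin that act on NPAT, CPSF3, the endonuclease of 3' cleavage (-0.52 ± 0.12; adjusted p = 0.00569), and LSM11, a protein of the U7 particle (-0.71 ± 0.19; adjusted p = 0.0142). The one that rose was TUT4, a uridylyltransferase (0.42 ± 0.13; adjusted p = 0.0285). NPAT stood at 0.07 ± 0.20 (adjusted p = 0.849). SLBP, which is also in the S phase list, was at -0.44 ± 0.20 (adjusted p = 0.135, and 0.00380 with the block). On day 4 it was at 42.9 and 47.4 FPKM in degron line 1 and 39.01 and 39.7 in line 2, against 69.2 to 85.4 in the control lines.

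Of 22 histone chaperones and assembly factors 8 fell and 1, SPTY2D1, rose (median -0.39). MCM2 is in this list and in the S phase list, so its fall counts in both. CHAF1B, a subunit of the complex that deposits new H3 and H4 at the fork (-1.17 ± 0.20; adjusted p = 0.000849), NASP, a carrier of H1 and H3 (-0.78 ± 0.15; adjusted p = 0.00205), and ASF1B, an H3 and H4 chaperone (-0.64 ± 0.14; adjusted p = 0.00511), were among those that fell. Of 9 histone variant genes, whose messages are polyadenylated or made outside S phase, 3 fell: CENPA, the H3 of centromeres (-1.18 ± 0.14; adjusted p = 5.75e-05), H2AZ1 (-0.89 ± 0.25; adjusted p = 0.0209) and H2AX (-0.79 ± 0.25; adjusted p = 0.0368). The median of the 9 was -0.10. Of 15 erythroid and megakaryocytic markers 9 fell, led by KLF1 (-3.02 ± 0.20; adjusted p = 7.56e-07), and EPOR, the erythropoietin receptor, rose (0.74 ± 0.20; adjusted p = 0.0185). Of markers of other cells, COL3A1 and FN1, matrix proteins, rose among 3 stromal genes tested and CD3D, a T cell receptor chain, fell among 4 lymphoid genes; the 10 stromal genes summed to 13.8 to 19.9 FPKM in the degron day 4 libraries and 1.41 to 19.7 in the others, and the 12 lymphoid genes to 28.8 to 54.5 and 10.3 to 153.9. Their part in the histone result was not tested.

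In HEL, histone counts were low. The 75 genes together took 42.1 to 63.7 CPM in a library, with 18 genes at 0 in all 9 libraries, and HIST1H2BK, the gene named H2BC12 in the degron table, held 44.5% of them. HIST1H2BK, HIST1H1C (H1-2), HIST3H2A and HIST1H2AC (H2AC6) together held 72.5%. The next by mean count were HIST1H2BD, at 19 to 63 counts a library, and HIST1H2BN, at 23 to 45. Of the 15 genes of the HIST2 cluster, 11 had no count and the 15 together had 6 counts in 9 libraries, whereas the K562 tables list H2BC21 (HIST2H2BE), for example, at 26.4 to 139 FPKM and at 122 to 161 TPM. A count of 0 in a library allows up to 3 counts by counting error, and HEL and K562 libraries were prepared by different providers. Only 17 of the 75 genes passed the low-count filter.

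Against non-targeting siRNA, TAL1 siRNA pool 1 gave 2 lower histone genes and 0 higher among the 17 tested (11.8%, with 1.65% of 16688 genes called lower and 2.56% higher by edgeR). With the replicate number as a block there were 2 lower and 1 higher (8.81% of all genes called lower and 8.49% higher). The gene called higher with pool 1 is not named here. HIST3H2A, an H2A gene that stands outside the large cluster, fell by 1.21 ± 0.28 (adjusted p = 0.0289). It had 89, 100 and 129 counts in the non-targeting libraries and 55, 41 and 29 with pool 1, or 3.34 to 5.52 and 1.37 to 2.46 CPM. The groups did not overlap. HIST1H2BG, an H2B gene, also fell (fitted change -3.85, which depends on the prior count; adjusted p = 0.0393), from 18, 13 and 7 counts to 0, 2 and 0. Its summed counts, 38 against 2, give a 17.1-fold lower rate with a 95% exact interval of 4.42 to 146, which covers counting error only. Over the 17 genes the median was -0.32 (-0.02 over all genes) and 12 were below 0.

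The changes with pool 1 kept their direction when single libraries were left out, but the calls did not all hold. HIST3H2A stood at -1.45 to -1.01 and HIST1H2BG at -6.52 to -3.34 in these 6 fits. Without non-targeting replicate 2 or 3, or pool 1 replicate 2 or 3, neither gene was called; HIST3H2A was still called without pool 1 replicate 1 or non-targeting replicate 1, and HIST1H2BG was called in none of the 6. Without non-targeting replicate 1, HIST1H1C was called too (-0.88 ± 0.21; adjusted p = 0.0381). DESeq2 called HIST3H2A alone (adjusted p = 0.00263) and gave no adjusted p for HIST1H2BG.

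Pool 2 gave no call without the replicate block (0 of 17 in edgeR and 0 in DESeq2), although TAL1 RNA stood as low as with pool 1. In edgeR 1 gene was at unadjusted p under 0.05, and 0.491% of all genes were called higher and 0.563% lower. With the block, HIST1H2BK passed as higher (4.97% of all genes called higher). HIST3H2A stood at 113, 110 and 114 counts with pool 2 (0.38 ± 0.26; adjusted p = 0.641). The test of pool 2 against pool 1 called HIST3H2A higher (1.58 ± 0.28; adjusted p = 0.0104; 5.88% of the 17, with 1.08% of all genes called higher and 1.68% lower). That call was absent without pool 1 replicate 2 or 3 or pool 2 replicate 3. Both pools are compared with the same 3 non-targeting libraries. In the degron table this gene is named H2AW, a symbol outside the rule, and stood there at 192 and 125 FPKM in degron line 1 on day 0 and at 89.2 and 73.4 on day 4, and at 127 and 98.7 and then 48.6 and 49.6 in line 2. H2AW went from 231 and 87.8 to 207 and 110.2 in parental cells and from 203 and 151 to 174 and 104 in the LMO2 control line, so it was also lower on day 4 in both bio reps of the latter.

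**Figure D4:**
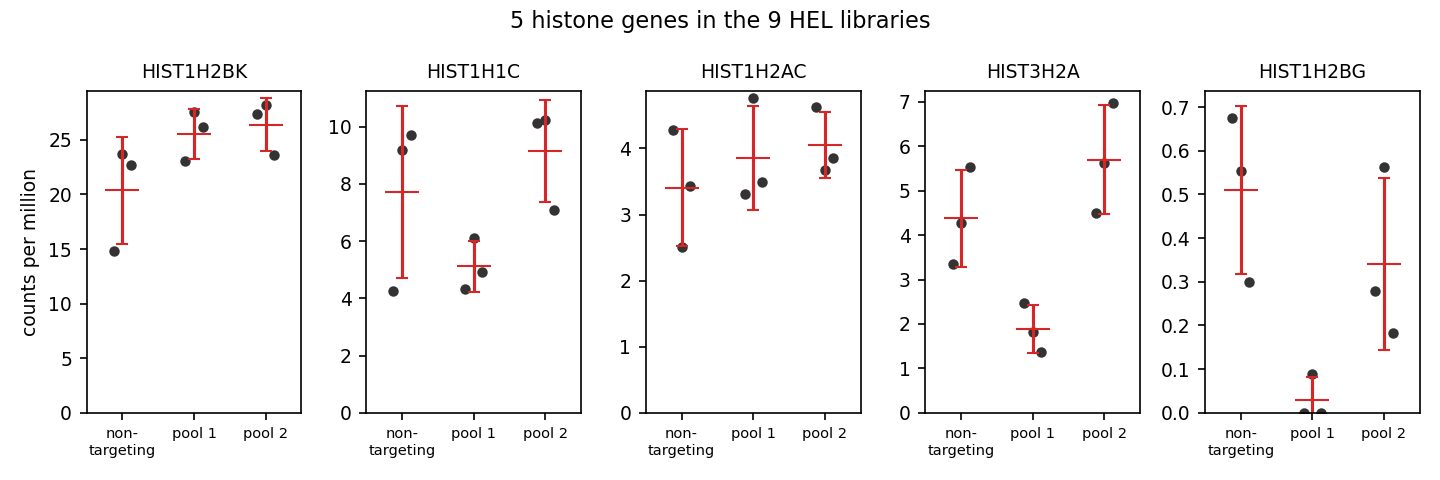
CPM (y axis, from 0, a separate scale per gene) of 5 histone genes in the 9 HEL libraries by siRNA group (x axis); points are libraries and red bars the mean ± SD of 3. HIST3H2A lies lower with pool 1 (1.37 to 2.46) than in the non-targeting libraries (3.34 to 5.52), and HIST1H2BG has 2 counts in all with pool 1.

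Without the replicate block, the other high histone genes showed no call in HEL with all libraries. With the block, HIST1H2BK passed as higher with pool 2. HIST1H2BK had 394, 556 and 529 counts in the non-targeting libraries, 515, 618 and 555 with pool 1 (0.33 ± 0.16; adjusted p = 0.315) and 687, 551 and 386 with pool 2 (0.38 ± 0.16; adjusted p = 0.381). HIST1H1C, called when the first non-targeting library was left out, had 113, 215 and 227, then 97, 137 and 104 with pool 1 (-0.59 ± 0.28; adjusted p = 0.299) and 254, 200 and 116 with pool 2. The first non-targeting library was low for both genes, and the groups overlapped in raw counts, which are not scaled to depth. HIST1H2AC (0.18 ± 0.24; adjusted p = 0.776 with pool 1) overlapped too.

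Of 25 S phase genes 8 fell with pool 1 (median -0.41), among them MCM3 (-0.48 ± 0.08; adjusted p = 0.00480) and MCM5 (-0.50 ± 0.09; adjusted p = 0.00872), helicase subunits, and GINS2, a replication fork protein (-0.81 ± 0.16; adjusted p = 0.0120); none passed with pool 2 (median -0.18). The difference between the pools was called for 3 of the 25. CDK2 was the one call among 25 processing genes (-0.30 ± 0.08, adjusted p = 0.0487), and MCM2 (-0.48 ± 0.09) and NASP (-0.39 ± 0.09) fell among 23 chaperones with pool 1. MCM2 is in the S phase list too and counts in both. H2AFX, the gene of H2AX, fell by 0.49 ± 0.12 among 11 variants (adjusted p = 0.0398), and BUB1 alone among 16 G2 and M phase genes (-0.44 ± 0.08; adjusted p = 0.00940). CCND1 (1.11 ± 0.24), CDKN2C (0.41 ± 0.09) and CDKN1B (0.42 ± 0.10) rose among 8 CDK inhibitors and G1 cyclins. None of 7 RNAs without a poly(A) tail was called with either pool, and RN7SL1 stood at 61.2 to 111 CPM in all 9 libraries.

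With LDB1 shRNA in K562 there is 1 library per group, so ratios carry no replicate check. Histone TPM summed to 8554 with control shRNA, 9363 with shRNA 1 and 9374 with shRNA 2. HIST1H2BK was again highest, at 3010, 3136 and 3181 TPM in the control, shRNA 1 and shRNA 2 libraries. HIST1H1C followed at 1880.3, 1749 and 1855, and HIST3H2A at 1154, 812 and 1062. The 2 highest genes thus lay within 10% of control in both libraries.

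Of 39 histone genes with at least 5 TPM in a library, 19 were above control in both shRNA libraries and 10 below (48.7% and 25.6%, against 53.5% and 34.5% of 12445 genes). Their median log2 ratio of TPM + 1 was 0.33 with shRNA 1 and 0.05 with shRNA 2 (0.18 and 0.13 over all genes). A total of 2 were at least 2-fold higher in both libraries (5.13%, against 8.94% of all genes) and 1 at least 2-fold lower (2.56%, against 2.21%). These shares lie below or near those of all genes. The 3 were all H3 genes: HIST1H3H, the gene named H3C10 in the degron table, stood at 179.99 TPM in control and at 453 and 373 with the shRNAs (log2 ratios 1.33 and 1.05), HIST1H3J at 3.72, 11.9 and 8.50 (1.45 and 1.01) and HIST1H3F at 5.38, 1.66 and 1.33 (-1.26 and -1.45).

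**Figure D5:**
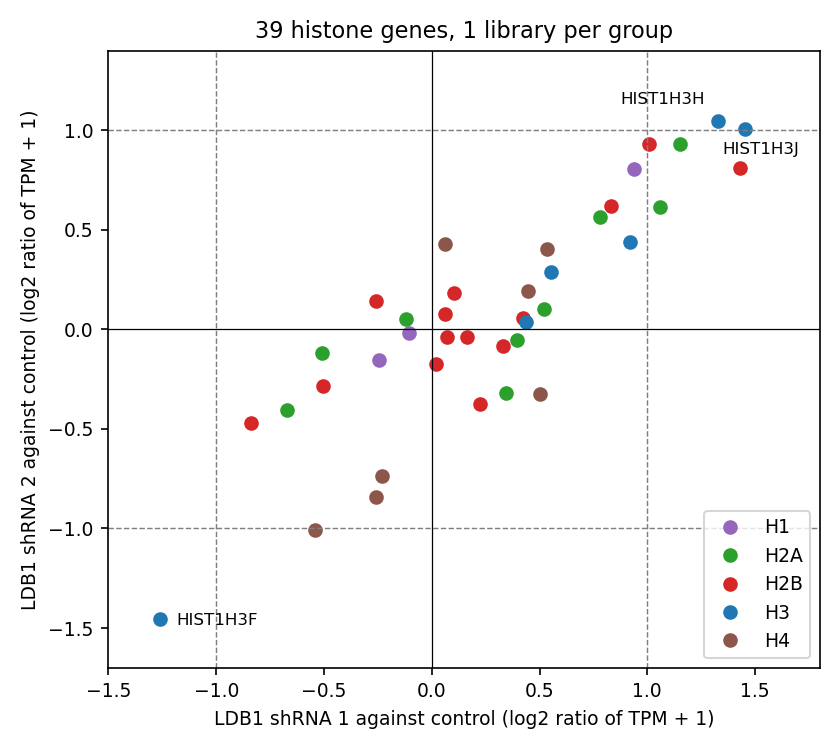
Log2 ratio of TPM + 1 against control shRNA for LDB1 shRNA 1 (x axis) and shRNA 2 (y axis) of 39 histone genes with at least 5 TPM in a library, coloured by type; dashed lines mark 2-fold. Each axis rests on 1 library, both share the control library, and 3 named genes are past 2-fold on both.

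With HIST1H3H, HIST1H2AC (327, 563 and 484 TPM) and HIST1H2BD (194, 390.1 and 370.2) completed the 6 highest by the mean of the 3 libraries. HIST1H4I (H4C9) was at 205, 214 and 277 and HIST1H2BJ (H2BC11) at 202, 217 and 229. H3 genes had the highest median ratios (0.74 and 0.37 over 6 genes), H2A genes stood at 0.39 and 0.05 over 9, and H4 genes at 0.06 and -0.32 over 7. None of 24 S phase, 16 G2 and M phase, 22 processing, 22 chaperone or 8 variant genes was past 2-fold in both libraries. SLBP stood at 133, 103 and 135 TPM, and CDKN1A at 7.16, 139 and 141. Of 6 RNAs without a poly(A) tail, RNU11 was past 2-fold, at 0.718, 5.42 and 3.26 TPM.

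The genes that fell in the degron lines had mixed directions in the LDB1 libraries. H1-2, H2BC12, H2BC4, H2BC11, H2BC13, H2BC17 and H4C9 stand in the TPM table as HIST1H1C, HIST1H2BK, HIST1H2BC, HIST1H2BJ, HIST1H2BL, HIST1H2BO and HIST1H4I. Of these 7, HIST1H2BO was below control in both libraries (136, 75.6 and 98.1 TPM), as was HIST1H1C, by under 10%. The other 4 with 1 direction were above it, HIST1H2BC among them (78.1, 139.7 and 121). HIST1H2BL stood at 29.5, 37.3 and 27.8. The sets differ in treatment, time and normalization, and no test was made between them.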

How the data were processed

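RNA-seq of polyA RNA was measured in 36 libraries of 2 leukemia lines. The authors deposited FPKM for the K562 degron set, raw counts per gene for HEL and TPM for the LDB1 set; per the submitters' processing notes, FastQC, STAR, featureCounts and hg19 were used, and their versions, the annotation and the strand setting are not given in the sources used here. Azenta prepared the K562 libraries and Novogene the HEL libraries, per the labels.

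FPKM were tested as log2(FPKM + 1) with limma 3.58.1 in R 4.3.3, over the 15348 genes that reach 1 FPKM in 2 or more libraries and all 12 line-by-day groups in 1 fit. For HEL, edgeR 4.0.16 (TMM, quasi-likelihood test) was run on the deposited counts of 16688 genes left by its low-count filter, with DESeq2 1.42.0 as an alternative. All p-values are adjusted by Benjamini-Hochberg over all genes tested, with a threshold of 0.05. The LDB1 set has 1 library per group and no test: a gene was called when TPM + 1 differed by at least 2-fold from control in both shRNA libraries, among genes that reach 5 TPM. A fold on a scale with a pseudocount understates the change of low genes.

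Bio rep numbers pair the K562 libraries: deviations from the group means correlated between same-numbered libraries in all 66 pairs of groups (0.119 to 0.662, median 0.377), so the value with the block stands beside results it changes. Whole reads were recovered from FPKM for 34425 of 40929 genes above 0. A gene was kept only if its values came out close to whole reads. That 100% of the kept values lie within 0.05 reads of a whole read is thus no separate check. The scripts were tested on simulated data.

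The genes and lists were chosen with earlier results of these data known. Named are the 6 highest histone genes of each table, every one called (the 10 with the smallest adjusted p where there were more) and up to 4 called genes of each other list. LSM11, TUT4, SPTY2D1, NPAT, SLBP, H2AW, H2BC21, EPOR, H4C8, H4C14, HIST1H2BL and the genes described as gained with the block were named after their values were seen. Not every gene called with the block is named, in the degron set or in HEL. Alternatives were other scalings, pseudocounts and filters, the block, single control or degron lines and leaving out each library.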

Additional observations from a re-analysis of the deposited data

Results flagged for a closer look

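HIST3H2A, an H2A gene, differed between the TAL1 siRNA pools in HEL: it was higher with pool 2 than with pool 1 by 1.58 on the log2 scale (edgeR adjusted p = 0.0104), with 113, 110 and 114 counts against 55, 41 and 29. All 3 pool 2 libraries were above all 3 pool 1 libraries. The difference was 1.401 to 1.82 when single libraries were left out and lost its call in 3 of those 6 fits. TAL1 stood at 165 to 190 CPM with pool 1 and at 179 to 194.6 CPM with pool 2. The cause was not tested.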

How the results depend on the processing

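Of the 8 histone genes called at day 4, the count was 14 with the replicate block (15.6%), 26 with the degron and control lines taken as replicates (19.2% of all genes called lower), 1 without the 4 bio rep 1 libraries of day 4 (4.14%), 1 with degron line 1 alone (3.3%) and 5 with the LMO2 control line as the only control (4.16%). Leaving out single libraries gave 5 (without LMO2 control day 0 replicate 1; 6.66%) to 12 (without parental day 0 replicate 1; 8.36%). A pseudocount of 0.1 gave 10 (8.45%), no filter 6 of 62 (2.71%) and TMM scaling 8 (8.69%). Of 28 alternatives, H4C9 was called in 28, H1-2, H2BC4, H2BC12 and H2BC17 in 26 each, H2BC13 in 23, H2BC11 in 14 and H2AC18 in 12, and no direction reversed. The day 0 comparison gave 0 to 1 calls when single libraries were left out (1 without parental day 0 replicate 2). In HEL, TAL1 siRNA pool 1 gave 2 calls, 1 by DESeq2 and 0 to 2 when single libraries were left out. Same-numbered HEL libraries correlated above 0 in all 9 pairs (0.0865 to 0.363, median 0.123), by over 0.1 in 6. The main HEL test left this pairing out. With the replicate block there were 3 calls for pool 1 (1 higher and 2 lower, with 8.49% and 8.81% of all genes, against 2.56% and 1.65% without it). There was 1 higher call for pool 2 (HIST1H2BK, 4.97% against 0.491%). Pool 2 against pool 1 gave 3 higher (7.09% against 1.08%). That difference had 2 calls with no filter (0.98%) and 0 to 1 without single libraries. The cause of these moves was not tested. With LDB1 shRNA 1 alone, 7 genes were past 2-fold (6 higher, 1 lower), against 3 for both. In HEL 58 of 75 histone genes were below the low-count filter and were not tested.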
